A study of Homo sapiens with 18 samples.

Results

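The replication-dependent histone genes were taken as all symbols of the count table that begin with HIST1H, HIST2H, HIST3H or HIST4H. The rule found 69 of the 20705 genes of the table. By class these are 7 H1, 16 H2A, 21 H2B, 13 H3 and 12 H4 genes. By cluster, 49 lie in HIST1, 15 in HIST2, 4 in HIST3 and 1 in HIST4, and 8 of the 69 are annotated as pseudogenes. RNA was measured in 2 human melanoma cell lines, CHL1 (BRAF and NRAS wild type, p53 mutant) and A375 (BRAF mutant, p53 wild type), as 2 libraries in each of 9 groups. CHL1 cells received DMSO for 72 hours (control_72h), 1 µM palbociclib, an inhibitor of the cyclin-dependent kinases CDK4 and CDK6, for 72 hours or 6 days (CDK4/6i_72h, CDK4/6i_6d), or 500 nM GSK3326595, an inhibitor of the arginine methyltransferase PRMT5, for 72 hours (PRMT5i_72h). A375 cells received the same treatments and had an additional DMSO control at 6 days (control_6d). CHL1 had no 6-day control, so its 6-day samples were compared with the 72-hour control, which all 3 CHL1 comparisons share. The comparisons ask how each inhibitor, the time of CDK4/6 inhibition and the cell line bear on histone mRNA. Nothing in the labels says that replicates came from separate cultures, so p-values measure only the spread between these libraries.

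Core histones H2A, H2B, H3 and H4 form the protein spool around which DNA is wound, and H1 linker histones bind between the spools. Cells make most of this protein during S phase from clustered genes without introns, whose mRNA ends in a conserved stem-loop that is bound by SLBP in place of a poly-A tail. The libraries were made from poly-A RNA, so these mRNAs are captured only in part, and a change in the share with a tail cannot be told apart from a change in amount. In bulk RNA, fewer cells in S phase and less histone RNA per cell also cannot be told apart.

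The stem-loop, the feature by which these mRNAs differ from others, was found after the stop codon of all 58 members annotated as coding (GENCODE 44 lifted to GRCh37). Stem and loop are in capitals in the following sequences, chosen as a highly expressed or strongly changing member of each class and 2 members that did not pass the test under palbociclib in either line.
HIST1H1C (chr6:26055972-26055987, minus strand): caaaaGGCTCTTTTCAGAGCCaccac
HIST1H2AG (chr6:27101294-27101309, plus strand): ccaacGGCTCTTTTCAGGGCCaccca
HIST1H2BB (chr6:26043460-26043475, minus strand): ccaaaGGCTCTTTTCAGAGCCaccta
HIST1H3B (chr6:26031825-26031840, minus strand): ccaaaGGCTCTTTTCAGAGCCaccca
HIST1H4D (chr6:26188943-26188958, minus strand): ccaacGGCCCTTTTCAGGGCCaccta
HIST1H2AC (chr6:26124897-26124912, plus strand): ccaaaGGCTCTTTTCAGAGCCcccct
HIST4H4 (chr12:14923658-14923673, minus strand): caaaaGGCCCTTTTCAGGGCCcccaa
The stem followed the class. All 11 H4 members with a match carried GGCCC and GGGCC, and all H1, H2B and H3 members with one carried GGCTC and GAGCC, as did 12 of 14 H2A members. Annotated transcripts of 16 members end at least 100 bases past the stem-loop, where a poly-A tail can be added, and those of the other 42 do not. The split rests on annotation alone: HIST1H1C and HIST1H2BK, known to be made also as polyadenylated mRNA, are among the 42. HIST1H2AC has a transcript that ends 14432 bases past the stem-loop and HIST4H4 one that ends 2725 bases past it.

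The promoters also split by class. Of the 69 members, 57 had a RefSeq promoter, and the 250 bases before the start were searched on both strands for 4 motifs. The octamer ATTTGCAT, known from H2B genes, was in 12 of 16 H2B and 8 of 13 H2A promoters, in 1 of 12 H3 promoters, in 0 H1 and H4 promoters and in 1.63% of all 35116 promoters. CCAAT stood in every H1, H2A, H2B and H3 promoter searched and in 1 of 10 H4 promoters, against 32.0% of all. AAACACA, the H1 box, was in all 6 H1 promoters, in 0 of the other classes and in 4.82% of all. TATAAA was in 64.9% of the members and 10.7% of all. The following promoters (GRCh38.p14) carry these motifs in capitals and belong to the members with the largest falls and to HIST1H2AC.
HIST1H1A (chr6:26017788-26018037, minus strand): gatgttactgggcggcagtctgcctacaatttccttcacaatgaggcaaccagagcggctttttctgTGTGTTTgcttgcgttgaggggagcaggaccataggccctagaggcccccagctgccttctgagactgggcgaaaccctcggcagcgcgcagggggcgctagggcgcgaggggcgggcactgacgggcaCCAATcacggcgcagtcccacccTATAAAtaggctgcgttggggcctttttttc
HIST1H2BB (chr6:26043714-26043963, minus strand): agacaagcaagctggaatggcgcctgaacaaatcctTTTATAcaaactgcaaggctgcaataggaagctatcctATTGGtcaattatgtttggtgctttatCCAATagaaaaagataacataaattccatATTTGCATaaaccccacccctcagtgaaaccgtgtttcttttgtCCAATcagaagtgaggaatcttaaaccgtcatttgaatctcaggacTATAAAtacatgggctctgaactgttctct
HIST1H4D (chr6:26189113-26189362, minus strand): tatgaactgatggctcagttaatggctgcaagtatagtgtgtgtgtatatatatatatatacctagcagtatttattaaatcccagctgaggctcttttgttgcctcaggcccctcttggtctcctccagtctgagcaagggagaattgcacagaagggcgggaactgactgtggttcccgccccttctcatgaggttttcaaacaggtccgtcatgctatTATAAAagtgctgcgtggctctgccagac
HIST1H2AC (chr6:26123922-26124171, plus strand): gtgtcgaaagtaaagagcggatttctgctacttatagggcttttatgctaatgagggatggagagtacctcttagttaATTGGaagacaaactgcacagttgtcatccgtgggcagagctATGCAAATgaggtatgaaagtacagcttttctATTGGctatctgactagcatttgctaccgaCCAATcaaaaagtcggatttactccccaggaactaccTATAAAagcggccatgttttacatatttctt
HIST1H2AC, which did not pass the test under palbociclib, and HIST1H2BB, which fell in all 6 comparisons, both hold the octamer, CCAAT and TATAAA.

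Libraries held 16213475 to 37424081 counts, of which 27327 to 158950 fell on the 69 members. The share of G and C in a transcript moved with the library: the log2 level of the richest decile of genes minus that of the poorest was -2.88 and -2.22 in the CHL1 PRMT5i_72h libraries and -2.55 and -1.26 in the A375 control_6d libraries, and lay between -0.22 and 0.56 in the other 14. Members have a median GC content of 57.6% against 47.9% for all genes, so GC-corrected counts, and corrected values of most genes named, are given beside the results of these 2 groups. Of 8 melanocyte genes, SOX10 and MLANA were not in the table, and 3 in CHL1 and 2 in A375 reached 1 CPM in every library. CPM are counts scaled to the library total with TMM within each line. MITF had 59.0 to 135 CPM in CHL1 and 85.0 to 218 in A375, and S100B 10.5 to 118 and 3.85 to 114. DCT had 33.5 to 133 CPM in CHL1 and at most 1.87 in A375. PMEL and TYRP1 stayed at or below 3.77 CPM in both lines, and TYR at or below 0.0674 CPM in CHL1 and 5.17 in A375. The leukocyte marker PTPRC had 6.86 to 15.7 CPM in CHL1 and at most 0.614 in A375. The fibroblast marker LUM had 10.3 to 33.5 CPM in CHL1 and 1.47 to 17.9 in A375. Of the other fibroblast markers, DCN had at most 0.132 CPM in CHL1 and 0.865 in A375. PDGFRA had 0 CPM in CHL1 and at most 1.89 in A375. The keratinocyte marker KRT14 had at most 0.441 CPM in CHL1 and 1.58 to 11.3 in A375, and KRT5 had 0 and at most 1.15. The part of these genes in the results was not tested. Reads cannot tell some copies apart. HIST2H3A and HIST2H3C, HIST2H4A and HIST2H4B, HIST1H4J and HIST1H4K, the H2B pseudogenes HIST2H2BC and HIST2H2BD, and HIST2H2AA3 and HIST2H2AA4 shared over 90% of the 50-base words in at least 1 transcript of the pair (HIST1H2AI and HIST1H2AJ shared 63.45% and 66.28%), so their separate values are uncertain, and so are those of members whose long transcripts overlap other genes.

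Members together stood at 4469 and 3618 CPM in the CHL1 control_72h libraries and at 6416 and 8387 CPM in the A375 control_72h libraries. The summed level under CDK4/6i_72h was 1581 and 1519 CPM in CHL1, 38.3% of the control mean. In A375 it was 1817 and 2141 CPM, 26.7% of the control mean. After 6 days of CDK4/6i it was 1561 and 1271 CPM in CHL1 and 1262 and 1041 CPM in A375, where the 6-day control libraries held 2516 and 4514 CPM. The A375 control at 6 days thus lay below both 72-hour control libraries, and its libraries differed more from each other than those of any other group. PRMT5i_72h libraries held 857 and 1260 CPM in CHL1 and 3379 and 4501 CPM in A375. In all 6 comparisons both treated libraries lay below both controls, for the sum and for each of the 5 classes.

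**Figure D1:**
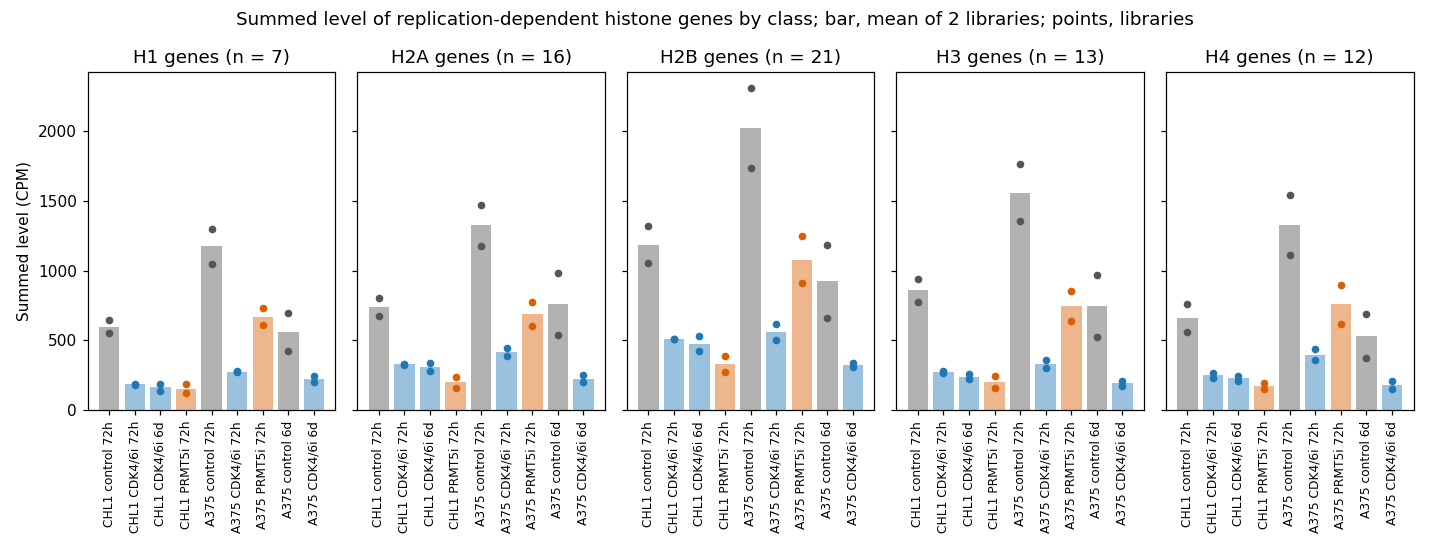
Summed level (CPM) of the members of each class in the 9 groups; bars are the mean of 2 libraries and points are the libraries. H2B genes, with 21 members, give the highest sums in every group, and treated libraries lie below their controls in each class.

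Untreated lines differed in which members they used. Both A375 control_72h libraries were above both CHL1 control_72h libraries for 53 members, 5 were below and 11 overlapped, where 49.6% and 34.9% of all genes were above and below. HIST1H4F, an H4 gene, had 0 counts in all 8 CHL1 libraries and 163 and 214 CPM in the A375 controls, at least 1810-fold higher than the floor of 3 counts in a control library (0.104 CPM). HIST1H1A, an H1 linker gene, had at most 3 counts in any CHL1 library and 5.40 and 10.2 CPM in the A375 controls. Its relative HIST1H1D had 8.01 and 4.30 CPM in CHL1 and 330 and 410 CPM in A375. The H2B genes HIST1H2BB and HIST1H2BM were also low in CHL1, at means of 10.0 and 4.47 CPM, against 81.1 and 43.0 CPM in A375. HIST1H4J went the other way, with 165 ± 30.9 CPM (SD, n = 2) in CHL1 and 74.4 ± 0.672 in A375. Line and library set cannot be told apart here, since the A375 72-hour libraries carry another set name than the rest, and HIST1H4F, HIST1H1D, HIST1H2BM and HIST1H4J were picked after their values were seen. The A375 6-day controls carry the set name of the CHL1 libraries but differ in time. Their sums overlapped those of the CHL1 controls for all members, HIST1, HIST2 and HIST4. For HIST3 they were 72.6 and 131 CPM against 42.4 and 39.7. Per length (CPM per kb of annotated exon), HIST1H4J at 425 and HIST1H2BK at 422 led in CHL1 and HIST1H4B at 767 and HIST2H3D at 570 led in A375, among members with an annotated length.

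CDK4/6 inhibition lowered most members in both lines at 72 hours. In CHL1, 49 of 69 members fell and 1 rose at an adjusted p below 0.05 in edgeR's quasi-likelihood test (Benjamini-Hochberg over all 20705 genes), where 2.72% of all genes were called lower and 2.27% higher. The median log2 fold change of the members was -1.42, against 0.00 for all genes. In A375, 58 members fell and 1 rose, where 7.11% and 6.22% of all genes did, with a median of -2.12. Of the 49 members called lower in CHL1, 48 were called lower in A375, which is 98.0% of the CHL1 list and 82.8% of the A375 list, with no library shared between the lines. Since 58 of the 69 members were lower in A375, most of any list of members would be shared. The overlap over all genes was not counted, so this share has no background. After GC correction 53 of 65 members were lower and 2 higher in CHL1 (background 7.06% and 6.61%), and 55 and 0 in A375 (background 13.1% and 11.2%). The CHL1 count fell when any 1 of the libraries compared was left out, and so did the count over all genes.

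Every class took part in CHL1 at 72 hours, with 4 of 7 H1, 12 of 16 H2A, 15 of 21 H2B, 10 of 13 H3 and 8 of 12 H4 genes lower. The largest fall was in HIST1H4D, an H4 gene, from 56.4 and 41.3 CPM in the controls to 7.90 and 5.94 CPM. Both treated libraries lay far below the controls, with a log2 fold change of -2.82 ± 0.26 (SE, adjusted p = 0.00078). HIST1H1E, an H1 gene, went from 199 and 167 to 49.5 and 45.1 CPM (-1.95 ± 0.22, adjusted p = 0.0014). HIST1H3B, the H3 gene with the highest mean level over the groups, went from 236 and 185 to 65.7 and 59.4 CPM (-1.75 ± 0.22, adjusted p = 0.0024). HIST1H2AG and HIST2H2AC had the highest mean levels of the H2A genes. HIST1H2AG fell by 1.45 ± 0.21 on the log2 scale (adjusted p = 0.0041), and HIST2H2AC fell by 0.93 ± 0.23 (adjusted p = 0.037). The member that rose was the H1 pseudogene HIST1H1PS1, named after its values were seen, from 0.255 and 0.460 to 1.17 and 1.83 CPM (2.06 ± 0.42, adjusted p = 0.018).

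In A375 at 72 hours 5 of 7 H1, 14 of 16 H2A, 18 of 21 H2B, 11 of 13 H3 and 10 of 12 H4 genes were lower. HIST1H1A fell most, from 5.40 and 10.2 to 0.770 and 0.469 CPM (-3.65 ± 0.46, adjusted p = 9.8e-05). HIST2H3D, an H3 gene of the HIST2 cluster, went from 237 and 298 to 51.3 and 56.7 CPM (-2.31 ± 0.27, adjusted p = 6.9e-05). HIST1H4D went from 157 and 225 to 35.2 and 47.5 CPM (-2.21 ± 0.31). The groups did not overlap for any of these members. HIST2H2BB, an H2B pseudogene, was the member that rose, from 5.88 and 5.44 to 9.45 and 10.3 CPM (0.80 ± 0.25, adjusted p = 0.046), and this call was lost with limma voom, with all 18 libraries in 1 fit and without any 1 of the libraries compared. The difference between the lines in the 72-hour CDK4/6i change, tested in 1 fit of all libraries, was past the threshold for 0 of 69 members, with 8 at an unadjusted p below 0.05 and a background of 0.401% lower and 0.241% higher. After GC correction, 1 member passed upward and 0 downward, where 1.61% and 1.34% of genes did.

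**Figure D2:**
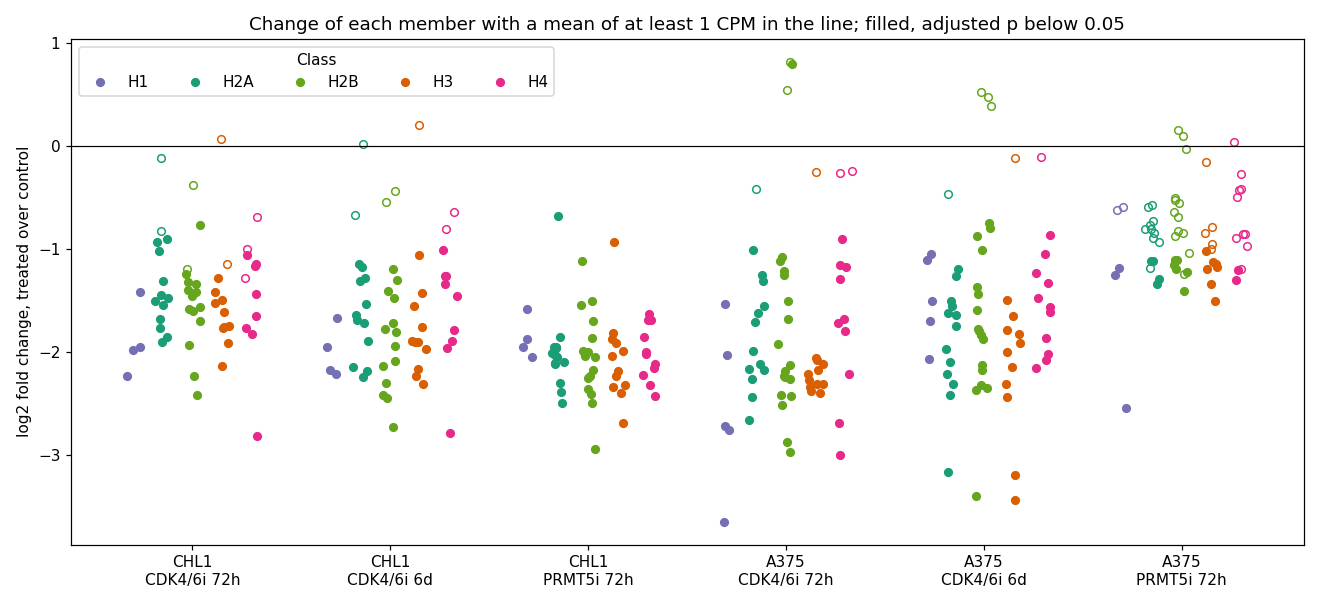
The log2 fold change (treated over control) of each member whose mean reached 1 CPM in the line, by comparison and class; filled points have an adjusted p below 0.05. Most points lie below 0, and of the 6 comparisons A375 PRMT5i_72h has the median nearest to 0 (-0.93 over all members).

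After 6 days of CDK4/6i the members stayed low. In CHL1, 51 members were called lower and 1 higher, with a median of -1.69, where 7.8% and 8.83% of all genes were called. The member called higher was again HIST1H1PS1 (1.51 ± 0.44, adjusted p = 0.036). HIST1H4D was again the largest fall, to 7.12 and 7.01 CPM (-2.79 ± 0.26, adjusted p = 0.00024). HIST3H2BB, an H2B gene outside the large clusters, was at 3.06 and 2.69 CPM against 19.9 and 18.3 in the controls (-2.73 ± 0.28). Compared directly, the 6-day and 72-hour CDK4/6i libraries of CHL1 differed for 0 of 69 members by edgeR, with 3 at an unadjusted p below 0.05, and all genes gave 0 lower and 3 higher calls (0.0145%). The GC-corrected CHL1 counts against control were 52 lower and 2 higher (background 14% and 14.3%). In A375, 58 members were called lower and 0 higher against the 6-day control, where 21.3% and 21.8% of all genes were called, and 1 had an unadjusted p below 0.05 upward. DESeq2 and limma voom called 0 members higher there. The A375 median was -1.64, and -2.08 with the GC correction, which gave 54 lower and 0 higher (background 17.8% and 20.1%).

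Among the A375 members after 6 days, HIST2H3C, an H3 gene, had 1.01 and 0.586 CPM against 5.27 and 12.1 in the 6-day controls (-3.44 ± 0.41, adjusted p = 2.4e-05, and -3.87 ± 0.32 with the GC correction). Its reads cannot be separated from those of HIST2H3A. HIST2H2AC was at 41.3 and 25.5 CPM against 113 and 197 (-2.21 ± 0.27, adjusted p = 2.9e-05, and -2.74 ± 0.20 corrected). HIST1H1A was at 2.02 and 1.54 CPM against 3.44 and 6.66 (-1.50 ± 0.38, adjusted p = 0.0054, and -1.85 ± 0.36 corrected). The 6-day change minus the 72-hour change was past the threshold for 0 of 69 members (14 at an unadjusted p below 0.05, background 0.908% lower and 0.174% higher), and for 1, downward, with the GC correction, where 1.05% of genes passed downward. Against the 72-hour control in place of the 6-day control the median change was -2.73 with 58 members lower. The 2 times of A375 were in different library sets, so time and set cannot be told apart.

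Some abundant members did not pass the test under CDK4/6i. HIST1H2AC, an H2A gene, had 87.5 and 69.6 CPM in the CHL1 controls, 68.5 and 76.7 CPM under CDK4/6i_72h and 83.8 and 75.6 CPM under CDK4/6i_6d. The groups overlapped, and the log2 fold changes were -0.11 ± 0.18 and 0.02 ± 0.18 (adjusted p = 0.81 and 0.98). In A375 they were -0.42 ± 0.23 and -0.46 ± 0.23 (adjusted p = 0.26 and 0.12). HIST4H4, the H4 gene of cluster HIST4, had 20.1 and 19.2 CPM in the A375 72-hour controls and 16.2 and 17.1 CPM under CDK4/6i_72h (-0.24 ± 0.29, adjusted p = 0.64). Its A375 6-day libraries overlapped the controls at 10.7 and 13.4 against 8.52 and 17.3 CPM, and its CHL1 changes were -0.69 ± 0.27 and -0.64 ± 0.28 (adjusted p = 0.18 and 0.14). HIST1H3E, an H3 gene named after its values were seen, held 7.44 and 6.60 CPM in the CHL1 controls and 8.24 and 6.48 CPM under CDK4/6i_72h. HIST1H2BK, an H2B gene, was not called in CHL1 (-0.37 ± 0.20 and -0.54 ± 0.20, adjusted p = 0.34 and 0.091) but fell in A375 by 1.11 ± 0.26 and 0.79 ± 0.26 (adjusted p = 0.0096 and 0.021), and the difference between lines at 72 hours was not past the threshold (adjusted p = 0.56).

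**Figure D3:**
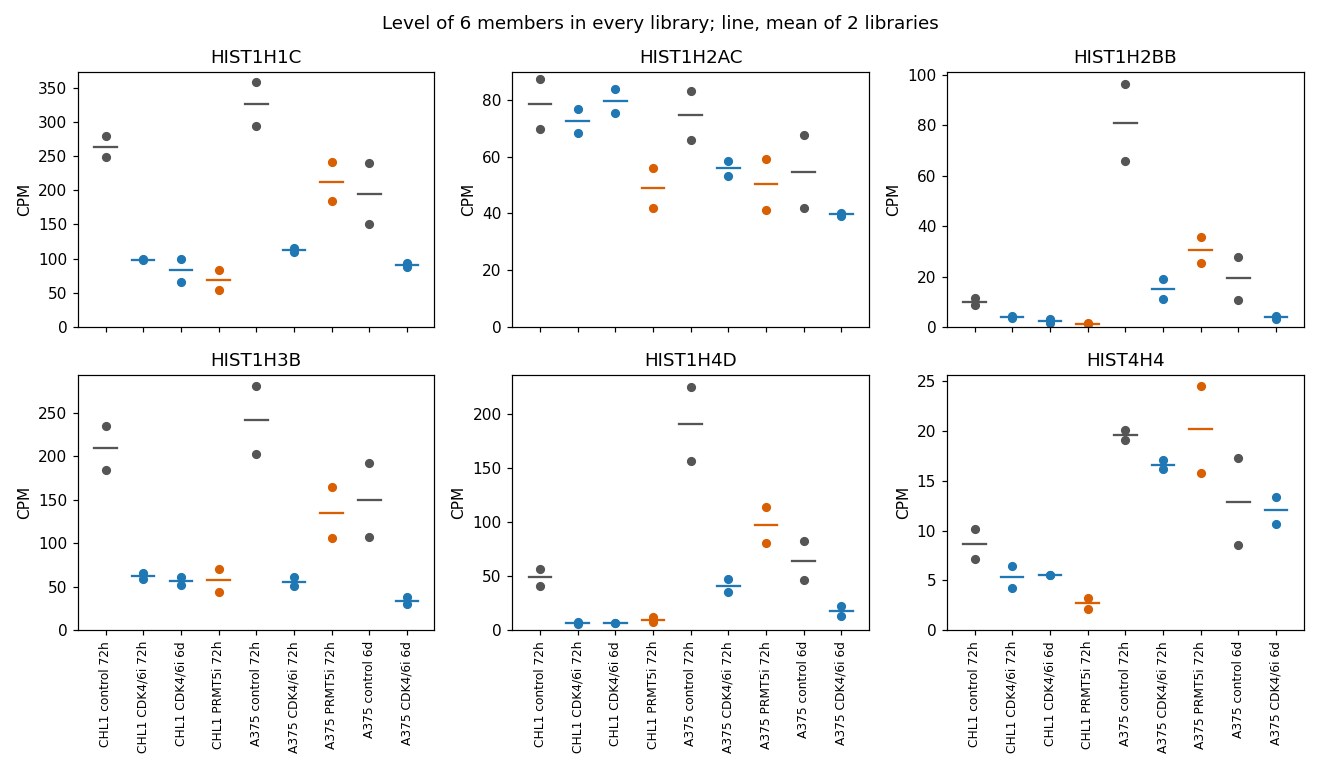
CPM of 6 members in every library of the 9 groups, with a line at the mean of 2 libraries. HIST1H2AC overlaps its control in both CHL1 CDK4/6i groups and HIST4H4 in A375 CDK4/6i_6d, while all treated libraries of HIST1H1C, HIST1H2BB, HIST1H3B and HIST1H4D lie below their controls.

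HIST1H2AC, HIST1H3E and HIST4H4 are among the 16 members with a transcript that ends past the stem-loop. Of these 16, 10 were lower in CHL1 and 13 in A375 at 72 hours of CDK4/6i, with medians of -1.26 and -1.44. Of the 42 without such a transcript, 36 and 39 were lower, with medians of -1.53 and -2.18. At 6 days 10 and 13 of the 16 were lower (medians -1.18 and -1.33), and 38 and 40 of the 42 (medians -1.84 and -1.83). The GC-corrected A375 medians at 6 days were -1.70 and -2.33. Under CHL1 PRMT5i the medians were -1.99 for the 16 and -2.03 for the 42 without the correction, and -1.97 and -0.98 with it. The difference between the groups of members was not tested, and the 16 had a lower median GC content, 47.7% against 58.4%. GC content is that of the longest annotated transcript, which in the 16 can include the part past the stem-loop. A split of the corrected medians therefore cannot be told apart from the choice of transcript.

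**Figure D4:**
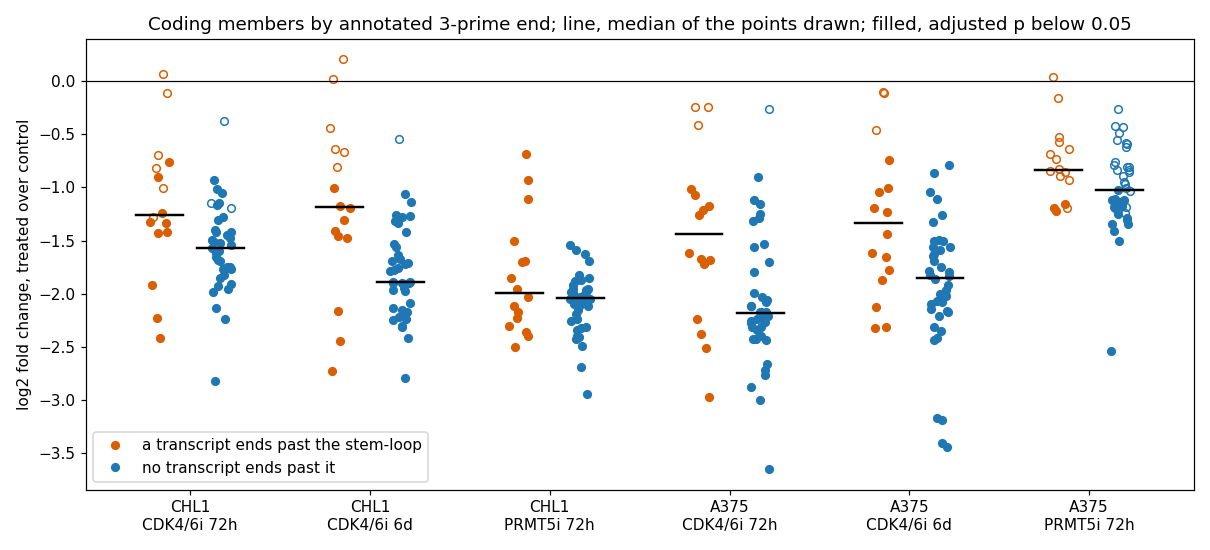
The log2 fold change of coding members whose mean reached 1 CPM in the line, split by whether an annotated transcript ends at least 100 bases past the stem-loop; lines are medians of the points drawn and filled points have an adjusted p below 0.05. Over all coding members the medians are -1.44 and -2.18 for A375 CDK4/6i_72h and, without GC correction, -1.99 and -2.03 for CHL1 PRMT5i_72h.

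The 8 members known to be made also as polyadenylated mRNA were summed apart, and their difference from the other members was not tested. HIST1H1C and HIST1H2BK of these 8 have no annotated transcript past the stem-loop. In CHL1 the summed level of the 8 was 49.7% of control under CDK4/6i_72h and 47.3% at 6 days. All members, which include the 8, were at 38.3% and 35.0%. In A375 the 8 were at 37.1% and 45.4%, and all members at 26.7% and 32.8%. HIST1H1C, an H1 gene, went from 279 and 248 to 98.2 and 98.8 CPM in CHL1 (-1.42 ± 0.23, adjusted p = 0.0070). HIST1H2BC (-1.32 ± 0.20), HIST1H2BD (-1.42 ± 0.21), HIST1H2BJ (-1.34 ± 0.22), HIST1H4H (-1.43 ± 0.18) and HIST2H2BE (-1.24 ± 0.23) also fell there on the log2 scale. In A375 7 of the 8 were lower at each time, all but HIST1H2AC.

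Cluster HIST3 holds HIST3H2A, HIST3H2BB, the H2B pseudogene HIST3H2BA and the testis gene HIST3H3. HIST3H2A had 103 and 137 CPM in the A375 72-hour controls and 36.8 and 41.1 CPM under CDK4/6i_72h (-1.62 ± 0.25, adjusted p = 0.00060). In CHL1 it was at 22.1 and 21.1 CPM and did not pass at 72 hours (-0.82 ± 0.26, adjusted p = 0.093) but fell at 6 days (-1.18 ± 0.26, adjusted p = 0.011). HIST3H2BB fell in all 6 comparisons, by 2.42 ± 0.27 in CHL1 and 2.51 ± 0.28 in A375 at 72 hours of CDK4/6i. HIST3H2BA stayed at or below 1.48 CPM in every library and was called lower under CHL1 PRMT5i and in A375 at both times of CDK4/6i. The testis genes HIST3H3 and HIST1H1T stayed at or below 0.633 and 0.379 CPM in every library and passed the test in none of the 6 comparisons.

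Under PRMT5 inhibition members were also lower, and how far the lines differed depended on the fit. In CHL1, 59 of 69 were lower and 0 higher by edgeR (0 upward at an unadjusted p below 0.05, and 0 by DESeq2 and limma voom), with a median of -2.01. This stands against a background of 27.6% of all genes lower and 26.4% higher. By class 4 of 7 H1, 14 of 16 H2A, 18 of 21 H2B, 12 of 13 H3 and 11 of 12 H4 genes fell. These libraries are those with the strongest GC trend, and with the GC correction 54 of the 65 members with a GC value were lower, with a median of -1.06, where 14.6% of genes were lower and 14.6% higher.

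Among members whose mean reached 1 CPM, HIST1H2BB fell most in CHL1 PRMT5i, from 11.6 and 8.50 to 1.00 and 1.62 CPM (-2.94 ± 0.36, adjusted p = 0.00011, and -2.47 ± 0.34 with the GC correction). HIST2H3D went from 72.8 and 69.9 to 8.06 and 14.1 CPM (-2.69 ± 0.24, and -1.34 ± 0.14 with the correction). HIST1H2AC went from 87.5 and 69.6 to 42.1 and 55.9 CPM (-0.68 ± 0.18, adjusted p = 0.0079, and -1.28 ± 0.16 with the correction). HIST4H4 went from 10.1 and 7.13 to 2.13 and 3.23 CPM (-1.69 ± 0.29, adjusted p = 0.00049, and -1.96 ± 0.28 with the correction). HIST1H2AC and HIST4H4 thus fell here, as did all 16 members with a transcript past the stem-loop. HIST1H2BK passed without the correction (-1.54 ± 0.21, adjusted p = 0.00016) and not with it (-0.45 ± 0.18, adjusted p = 0.084).

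In A375, PRMT5i_72h lowered 23 members and raised 0 (55 downward and 0 upward at an unadjusted p below 0.05), where 1.74% and 0.874% of all genes were called lower and higher. DESeq2 and limma voom called 0 higher. The median was -0.93. By class 3 of 7 H1, 4 of 16 H2A, 7 of 21 H2B, 7 of 13 H3 and 2 of 12 H4 genes fell, and 22 of the 23 lie in cluster HIST1. With the GC correction 33 of 46 HIST1, 7 of 14 HIST2 and 2 of 4 HIST3 members were lower. HIST1H1A again fell most, to 1.13 and 1.55 CPM (-2.54 ± 0.42, adjusted p = 0.0064). HIST3H2BB went from 91.7 and 130 to 39.2 and 55.8 CPM (-1.22 ± 0.27, adjusted p = 0.025), and HIST1H2BJ from 147 and 197 to 65.1 and 88.8 CPM (-1.16 ± 0.28, adjusted p = 0.041). HIST1H3B, at 106 and 164 against 203 and 281 CPM, did not pass (-0.84 ± 0.27, adjusted p = 0.12), although the groups did not overlap, and it passed with the GC correction (-0.90 ± 0.22, adjusted p = 0.027) and with the replicate number as a block (-0.85 ± 0.09). This count depends on the fit. It was 53 with only the 72-hour libraries of A375, where 1891 of 20705 genes were lower and 1374 higher. It was 42 with the GC correction (background 5.04% lower and 3.3% higher). With the replicate block it was 59 (background 15.4% lower and 14.1% higher), and 57 with block and correction (16.5% and 16.9%). The sample index in the A375 72-hour labels follows the replicate number. The libraries may thus be paired, and the labels cannot decide between 23 and 59. With limma voom the count was 3, where 148 of all genes were lower and 84 higher. It fell when any 1 of the 4 libraries compared was left out, and so did the count over all genes.

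Against CDK4/6i at the same 72 hours, PRMT5i left the A375 members higher: 27 were higher and 0 lower in the direct test (51 upward and 1 downward at an unadjusted p below 0.05), with a median difference of 1.00, where 2.37% of all genes were higher and 3.09% lower. With the GC correction 40 were higher and 0 lower, against 8.08% and 7.15% of genes. HIST1H1E stood at 237 and 271 CPM under PRMT5i and 94.5 and 93.3 under CDK4/6i, a log2 difference of 1.44 ± 0.24 (adjusted p = 0.0035). In CHL1 the direction rests on the GC correction. Without it 31 members were lower under PRMT5i and 0 higher (37 and 0 at an unadjusted p below 0.05), with a median of -0.58 and a background of 29.4% lower and 28.4% higher, and with it 12 were lower and 26 higher, with a median of 0.41 and a background of 20.2% and 20.8%. After the correction, 9 of the 16 members with a transcript past the stem-loop were lower and 0 higher. Of the other 42 coding members 2 were lower and 26 higher. The correction used the GC content of the longest annotated transcript, which differs between these groups of members. This split therefore cannot be told apart from the choice of transcript. HIST1H2AC was lower under PRMT5i both without (-0.57 ± 0.18, adjusted p = 0.019) and with the correction (-1.26 ± 0.16, adjusted p = 0.00014). HIST1H4D did not pass without it and was higher with it (1.39 ± 0.19, adjusted p = 0.00018).

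Without the GC correction, the PRMT5i change was larger in CHL1 than in A375 for 39 of 69 members, with a median difference of -1.16 on the log2 scale and a background of 22.1% lower and 18.8% higher. With the GC correction 6 of the 65 members with a GC value passed, no larger a share than the 10.1% of all genes that were lower. The median was -0.11, so the difference for most of the 39 was not past the threshold. All 6 were members with a transcript past the stem-loop, the group with the lower median GC content, so this cannot be told apart from the correction. HIST4H4 showed a difference of -1.76 ± 0.45 without (adjusted p = 0.0043) and -2.04 with the correction (adjusted p = 0.0078), and HIST2H2BE one of -1.53 ± 0.39 (adjusted p = 0.0045) and -1.40 (adjusted p = 0.017).

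**Figure D5:**
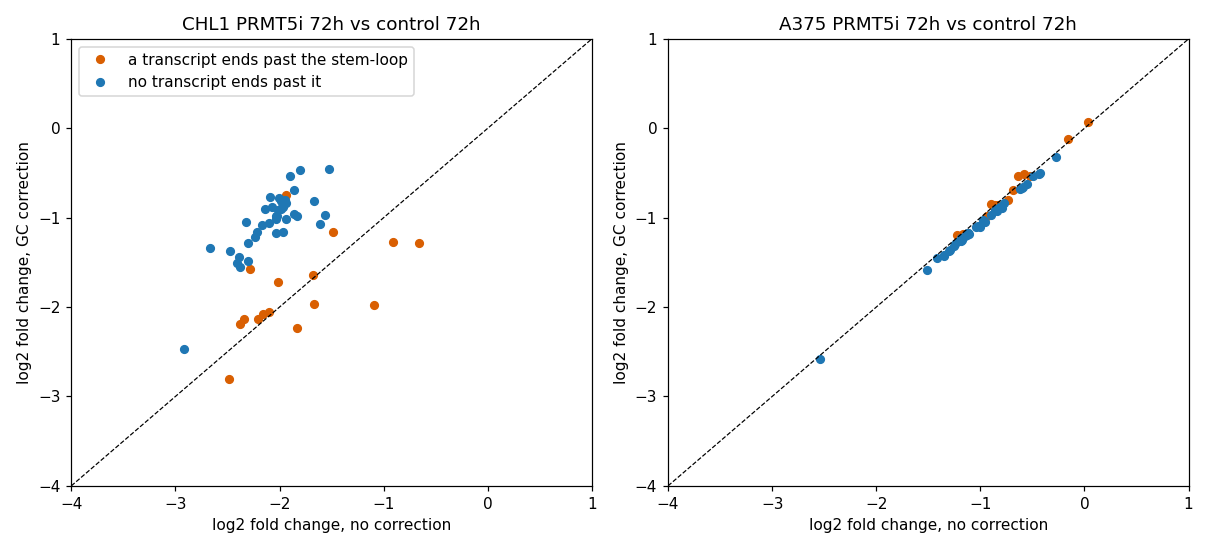
The log2 fold change under PRMT5i_72h of coding members whose mean reached 1 CPM in the line, without (x axis) and with (y axis) the GC correction; the dashed line marks equal values. In CHL1 most members without a transcript past the stem-loop move toward 0, and in A375 the members stay near the line. GC content was taken from the longest annotated transcript, so the correction differs between the groups of members.

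Other genes that work on histones moved less uniformly. Of 16 genes that act on the transcription, end processing or decay of histone mRNA, 0 were called under CHL1 CDK4/6i_72h and 1 was lower at 6 days (ZNF473, a processing factor, -0.72 ± 0.21, adjusted p = 0.035). In A375 4 were lower and 0 higher at 72 hours, and 5 were lower and 5 higher at 6 days. SLBP, which binds the stem-loop, had 58.7 ± 0.375 CPM (SD, n = 2) under A375 CDK4/6i_72h against 98.4 ± 13.2 in the control (-0.75 ± 0.17, adjusted p = 0.0088), fell by 0.53 ± 0.17 at 6 days (adjusted p = 0.019) and did not pass in the other 4 comparisons. NPAT, the coactivator of histone transcription, fell under A375 CDK4/6i_72h by 0.73 ± 0.21 (adjusted p = 0.030). Its changes at 6 days in A375 (-0.93 ± 0.21) and under CHL1 PRMT5i (1.22 ± 0.19) passed without the GC correction and not with it (-0.075 ± 0.11 and 0.17 ± 0.11, adjusted p = 0.63 and 0.31). CASP8AP2, an NPAT partner, had the largest fall of this list in A375 at both times without the correction, -1.13 ± 0.20 and -1.46 ± 0.20, and was at -0.88 ± 0.10 and -0.58 ± 0.10 with it. Under CHL1 PRMT5i 5 of the 16 were lower and 6 higher, and under A375 PRMT5i 0 were called by edgeR with or without the correction. These counts stand beside 27.6% of all genes lower and 26.4% higher under CHL1 PRMT5i, and 21.3% and 21.8% in A375 at 6 days. Under CHL1 CDK4/6i_6d 7.8% of all genes were lower, and under A375 CDK4/6i_72h 7.11%. The corrected counts were 2 lower and 2 higher under CHL1 PRMT5i, where 14.6% of genes were lower and 14.6% higher. In A375 at 6 days they were 3 lower and 1 higher, where 17.8% and 20.1% of genes were.

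Of 13 histone chaperones in the table, 3 were lower in CHL1 at each time of CDK4/6i, 7 in A375 at 72 hours and 5 at 6 days, and 0 were higher. CHAF1B, a subunit of the chromatin assembly factor that loads new histones, fell in A375 by 1.70 ± 0.24 at 72 hours (adjusted p = 0.00029). NASP, a carrier of H1 and H3, fell in CHL1 by 0.80 ± 0.18 and 1.19 ± 0.18. Of all genes, 2.72% and 7.8% were lower under CDK4/6i in CHL1 at 72 hours and 6 days, and 7.11% and 21.3% in A375. With the GC correction 6 chaperones were lower in A375 at 6 days, where 17.8% of genes were lower. Under CHL1 PRMT5i 6 were lower and 2 higher, with and without the correction. Of all genes, 27.6% were lower and 26.4% higher there, and 14.6% each with the correction. ASF1B, which carries H3 and H4, was lower there (-1.81 ± 0.20, and -0.87 ± 0.14 with the GC correction) and was the 1 chaperone lower under A375 PRMT5i (-1.24 ± 0.23, adjusted p = 0.012), where 2 were lower with the correction. Of all genes, 1.74% were lower under A375 PRMT5i, and 5.04% with the correction.

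Of 11 replication-independent histone variant genes, 1 was lower under CHL1 CDK4/6i_72h, 7 under A375 CDK4/6i_72h and 8 under A375 CDK4/6i_6d. The medians were -0.41, -0.89 and -0.90, and 0 were higher. Under CHL1 CDK4/6i_6d 3 were lower and 1 higher, and under A375 PRMT5i 1 was lower and 0 higher. Under CHL1 PRMT5i 3 were lower and 2 higher, not above the shares of all genes (27.6% and 26.4%). With the GC correction 2 were lower and 3 higher there, where 14.6% of genes were lower and 14.6% higher. In A375 at 6 days the corrected counts were 8 lower and 0 higher, where 17.8% of genes were lower and 20.1% higher. Of all genes, 2.72% and 7.8% were lower under CDK4/6i in CHL1 at 72 hours and 6 days, 7.11% and 21.3% in A375, and 1.74% under A375 PRMT5i. CENPA, the centromeric H3 variant, fell in A375 at 72 hours from 51.6 ± 5.75 to 18.3 ± 0.509 CPM (-1.49 ± 0.19, adjusted p = 0.00011). H2AFX, the H2A variant marked at DNA breaks, passed under CHL1 PRMT5i without the GC correction (-1.72 ± 0.24, adjusted p = 0.00017) and not with it (-0.28 ± 0.12, adjusted p = 0.12). Of 16 S-phase genes, 7 were lower under CHL1 CDK4/6i_72h, 10 at 6 days, 15 under A375 CDK4/6i_72h and 10 at 6 days, with medians of -0.69, -0.75, -1.38 and -0.76, and 1 was higher in A375 at 6 days. With the GC correction 13 were lower and 1 higher in A375 at 6 days. Under CHL1 PRMT5i 8 were lower and 3 higher (3 and 0 with the GC correction), and under A375 PRMT5i 5 were lower and 0 higher. The shares of all genes given for the variants apply here too. CCNA2, the S-phase cyclin, fell by 1.29 ± 0.19 in CHL1 and 1.92 ± 0.19 in A375 at 72 hours. Over the 18 libraries, which pool both lines and share controls, the genes whose log2(CPM + 1) followed the summed member level most closely were AURKB (Pearson r = 0.97), FOXM1 (0.96), UHRF1 (0.96), KIF20A (0.95) and PLK1 (0.94), given as a description among the 15610 genes whose mean reached 1 CPM.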

How the data were processed

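Poly-A RNA was sequenced by the authors in paired 150-base reads, aligned with HISAT2 2.0.4 to GRCh37 and counted with HTSeq (the version differs between the labels and the methods), and genes with low expression were removed with edgeR. The deposited table is called normalised but holds whole numbers for 20705 symbols and 18 libraries whose totals differ, and in each library every value from 1 to 60 occurs, with none skipped as scaling up and rounding would leave, so its values were treated as raw counts. Strandedness is not given in the sources used here, so reads of overlapping genes cannot be separated. Counts were fitted per line in R 4.3.3 with edgeR 4.0.16 (TMM, quasi-likelihood, no filter, prior count 0.125, adjusted p below 0.05 over all genes), and line differences in 1 fit of all 18 libraries. SE is the log2 fold change divided by the square root of F. The GC correction enters a loess curve (span 0.4) of each library on GC content as an offset, for 16357 genes. GC content is that of the longest annotated transcript of a gene. The fit was tested on simulated data. Symbols were matched to GENCODE 44 lifted to GRCh37 (65 of 69 members placed) and to RefSeq. Members described singly are the 2 most abundant of each class, the largest called rise and fall of each comparison at a mean of at least 1 CPM, the known poly-A members, clusters HIST3 and HIST4, and testis genes. Listed genes are the up to 3 largest calls per comparison, SLBP and NPAT. Members, lists and rules were chosen with earlier results of these data known. DESeq2 1.42.0, limma voom 3.58.1, other fits and leaving out each library were tried as alternatives. SE values draw on the spread between libraries of a group, and SD values are that spread. Floors cover counting error only, and the reads carry no molecular identifiers.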

Additional observations from a re-analysis of the deposited data

Results flagged for a closer look

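The PRMT5i_72h change differed between CHL1 and A375 for 17 of the members named by the rule, by the interaction test in 1 fit of all 18 libraries. The value was lower in CHL1 for each before GC correction. Of all genes, 22.1% were lower and 18.8% higher in this test. The log2 differences (CHL1 minus A375) were -1.37 for HIST1H1C, -1.31 for HIST1H1E, -1.23 for HIST1H2AG, -1.57 for HIST1H2BB, -1.21 for HIST1H2BD and -1.23 for HIST1H2BJ. They were -1.02 for HIST1H2BK, -1.07 for HIST1H3B, -1.61 for HIST1H4B, -1.39 for HIST1H4D, -0.998 for HIST1H4H and -1.39 for HIST2H2AC. In the remaining members they were -1.53 for HIST2H2BE, -1.77 for HIST2H3D, -1.41 for HIST3H2A, -1.31 for HIST3H2BB and -1.76 for HIST4H4. With the GC correction 15 of the 17 kept their sign, HIST1H2AG and HIST1H2BK turned (0.065 and 0.13), and 5 of the 17 passed the threshold: HIST1H2BD (-1.14), HIST1H4H (-1.39), HIST2H2BE (-1.40), HIST3H2BB (-1.63) and HIST4H4 (-2.04). With the correction, 10.1% of all genes were lower and 10.8% higher. Line and library set cannot be told apart in this comparison.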

How the results depend on the processing

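The direction of most named members did not depend on the settings tried: of 1778 alternative values, 1579 kept direction and side of the threshold, 97 gained a call, 95 lost one and 7 turned. Those that turned lay near 0. HIST1H2AC was 0.061 in CHL1 CDK4/6i_72h without control replicate 1 (-0.27 to 0.061 over left-out libraries) and, at 6 days, -0.13 without control replicate 2 and -0.056 without CDK4/6i_6d replicate 1 (-0.13 to 0.20). HIST4H4 was 0.50 in A375 CDK4/6i_6d without control_6d replicate 2 and 0.049 without CDK4/6i_6d replicate 1 (-0.53 to 0.50), and -0.31 in A375 PRMT5i_72h without PRMT5i_72h replicate 2 (-0.31 to 0.32). HIST2H2BB was -0.058 there without PRMT5i_72h replicate 1 (-0.058 to 0.34).

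Leaving out 1 library at a time, the lower counts ranged from 19 to 35 (CHL1 CDK4/6i_72h), 43 to 49 (CHL1 CDK4/6i_6d), 57 to 59 (CHL1 PRMT5i_72h), 44 to 54 (A375 CDK4/6i_72h), 51 to 59 (A375 CDK4/6i_6d) and 0 to 1 (A375 PRMT5i_72h), and the higher counts were 0 throughout except 0 to 1 for A375 CDK4/6i_6d. The number of all genes called changed in these fits as well, and fell in each of them for CHL1 CDK4/6i_72h and A375 PRMT5i_72h. A group left with 1 library is assumed to vary like the others. The A375 PRMT5i_72h lower count was 3 with limma voom, 45 with only the compared groups, 42 with the GC correction, 53 with only the 72-hour libraries and 2 at an adjusted p below 0.01. Of all genes, 148 were lower with limma voom and 1198 with only the compared groups. With the GC correction 824 were lower, and 1891 with only the 72-hour libraries. The cause of these differences in count was not tested.

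Higher counts moved among 0, 1 and 2. For CHL1 CDK4/6i_72h they were 2 with limma voom, only the compared groups and the GC correction, and 0 at an adjusted p below 0.01. For CHL1 CDK4/6i_6d they were 0 with DESeq2 and at an adjusted p below 0.01, and 2 with the GC correction and with only genes that have a GC value. For A375 CDK4/6i_72h they were 0 with limma voom, all 18 libraries in 1 fit, an adjusted p below 0.01 and a log2 fold change of 1 or more in size, and 0 in the fits with the GC correction or only genes with a GC value, which do not hold HIST2H2BB, the member called. For A375 CDK4/6i_6d they were 1 with all 18 libraries and with the 72-hour control. With the GC correction, chosen for the direct tests after seeing the data, CHL1 PRMT5i_72h against CDK4/6i_72h gave 12 lower and 26 higher members with a median of 0.41, the A375 time difference 1 lower, and the line differences 1 higher (CDK4/6i_72h) and 6 lower (PRMT5i_72h).

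With the replicate number as a block, the lower counts in CHL1 were 42, 50 and 59 (CDK4/6i_72h, CDK4/6i_6d, PRMT5i_72h). Of all genes, 2.27%, 7.65% and 27.4% were lower there. Both 72-hour comparisons of A375 had 59 lower (background 21.7% for CDK4/6i_72h and 15.4% for PRMT5i_72h). A375 CDK4/6i_72h had 2 higher, where 20.6% of all genes were higher. With block and GC correction together, A375 PRMT5i_72h had 57 lower, both CHL1 CDK4/6i comparisons 2 higher and A375 CDK4/6i_72h 0. Of all genes, 16.5% were lower under A375 PRMT5i_72h. The higher shares were 7.01% under CHL1 CDK4/6i_72h, 14.6% under CHL1 CDK4/6i_6d and 23.7% under A375 CDK4/6i_72h. Deviations of same-numbered libraries correlated at -0.31 to 0.43 in CHL1 and 0.19 to 0.42 among the 72-hour groups of A375. All 3 A375 values are positive, a hint from the data that the numbers may pair these libraries. The A375 72-hour labels also list the 3 libraries of the same number in a row, in the order of their sample index. With 2 numbers and no label that says what such a set shares, the fit without the block was kept. Whether these libraries were paired was not tested further. The A375 6-day libraries carry no number. With 2 libraries a group and partial capture of mRNA without a tail, small changes of low members were not detectable at this depth.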
